A study of Mus musculus with 24 samples.

Results

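The B cell receptor proximal signalling genes are the genes whose products take the signal from the antigen receptor into the B cell. They were chosen by name, from a list of 10: Cd79a, Cd79b, Blnk, Syk, Btk, Blk, Lyn, Plcg2, Rasgrp1 and Bank1. Of these, 9 were found by the gene symbol of the platform annotation, each with 1 probe set, among 19938 genes with a single symbol; Lyn was not analysed here. RNA was measured on 24 Affymetrix mouse gene arrays in 6 groups, and values are log2 expression levels as deposited. The series description gives 3 wild-type (WT) precursor mice and the sample labels give 4, all of which were used.

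All groups were bone marrow cells of mice. The Pax5+/- leukaemias were 7 tumour-bearing marrows of Sca1-BCR/ABLp190+Pax5+/- mice, in which the Sca1 promoter, active in haematopoietic stem and progenitor cells, drives BCR/ABLp190, a fusion oncogene, and in which 1 Pax5 copy is disrupted. The both-copies leukaemias were 2 tumour-bearing marrows of Sca1-BCR/ABLp190 mice, whose labels name the same oncogene and no Pax5 allele. They were set against B220+ marrow B cells of 5 WT mice. The Pax5+/- precursors were pro-B and pre-B cells of 3 preleukaemic Sca1-BCR/ABLp190+Pax5+/- mice, the both-copies precursors the same cells of 3 preleukaemic Sca1-BCR/ABLp190 mice, and the WT precursors 4 samples of pro-B and pre-B cells without the oncogene. The labels give no ages and name no sort for the leukaemic marrows.

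The B cell receptor is a membrane immunoglobulin that binds antigen but cannot signal by itself. Its partners Cd79a and Cd79b carry the tyrosine motifs that Src family kinases such as Blk and Lyn phosphorylate, which recruits the kinase Syk; Syk phosphorylates the adaptor Blnk, on which Btk activates the phospholipase Plcg2, and the diacylglycerol made there engages the Ras activator Rasgrp1. The same chain serves the pre-B cell receptor, the checkpoint at which pro-B cells become pre-B cells, and Pax5, the transcription factor of B cell identity, is known to activate Cd79a and Blnk.

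Along the leading principal component (46.6% of the variance) the 9 leukaemias stood apart from the other 15 arrays. B lineage markers without the genes under study (10 of 11 measured) had a mean level of 9.63 to 10.91 in the Pax5+/- leukaemias and 9.52 to 9.67 in the both-copies leukaemias, against 12.37 to 12.53 in the B220+ cells. Monocyte and macrophage markers (15 of 16) ran the other way, at 7.47 to 9.69 and 8.15 to 9.24 in these leukaemias, against 6.47 to 6.95 in the B220+ cells, as did stroma and endothelium markers (13 of 13), at 7.64 to 9.35 and 8.28 to 9.33 against 6.60 to 6.68. Neutrophil markers (13 of 13) were at 11.39 to 12.01 in the both-copies leukaemias and 7.17 to 9.61 in the Pax5+/- leukaemias. The precursors of all 3 genotypes held pro-B and pre-B markers at 10.27 to 10.60, which fits their label. In such bulk RNA, fewer B lineage cells and less RNA per B lineage cell cannot be told apart, and the part of these other cell types in the results that follow was not tested.

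**Figure D1:**
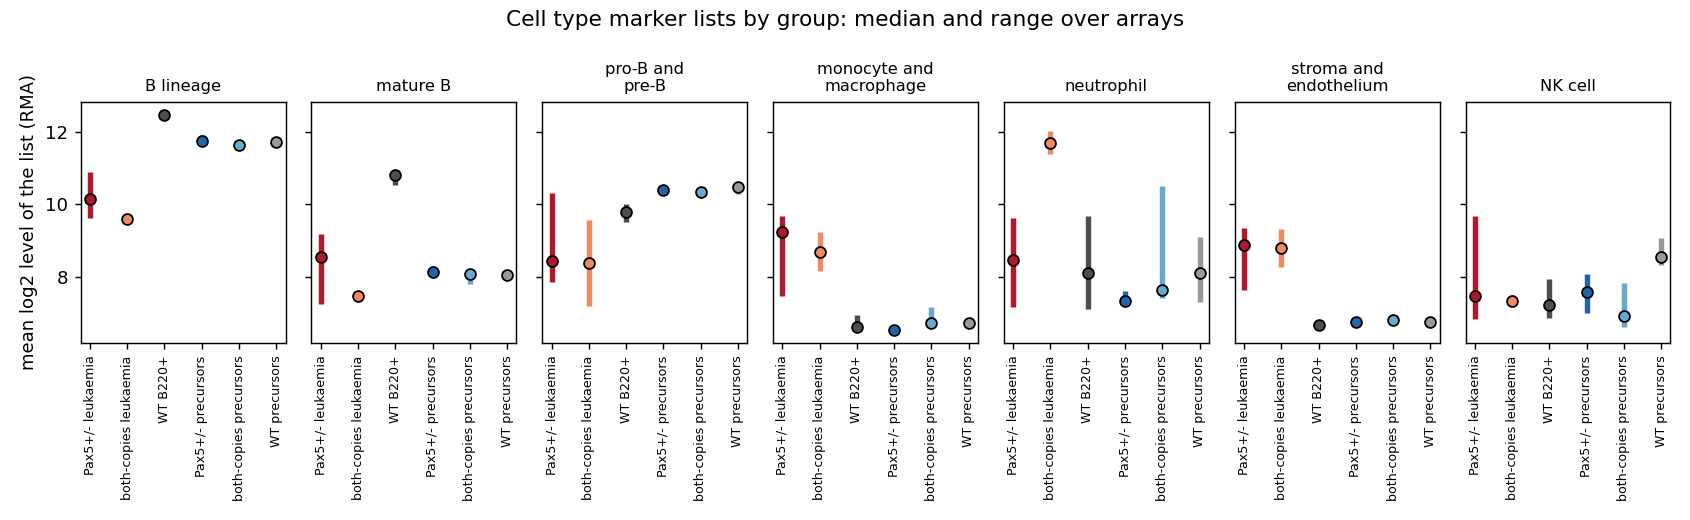
Mean log2 level of 7 marker lists in each group (points, median over arrays; bars, lowest to highest array). B lineage markers lie lower and macrophage and stroma markers higher in both leukaemia groups than in the sorted cells, and mature B markers are high in the WT B220+ cells alone.

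The promoters of 4 genes are shown because their genes behaved differently on these arrays: Cd79a and Blnk were lower in every leukaemia than in every WT array, while Plcg2 and Bank1 left that pattern. Each runs from 250 bases before to 50 after the start, 5′ to 3′ on the gene's strand, from RefSeq on GRCm38.p6: Cd79a at chr7:24897247-24897546, plus strand; Blnk at chr19:40994172-40994471, minus strand; Plcg2 at chr8:117498025-117498324, plus strand; Bank1 at chr3:136326017-136326316, minus strand. Capitals mark matches, on either strand, to the E boxes CAGCTG and CAGGTG, the ETS cores CCGGAA and AGGAAG, and the EBF1 palindrome CCCNNGGG.
Cd79a: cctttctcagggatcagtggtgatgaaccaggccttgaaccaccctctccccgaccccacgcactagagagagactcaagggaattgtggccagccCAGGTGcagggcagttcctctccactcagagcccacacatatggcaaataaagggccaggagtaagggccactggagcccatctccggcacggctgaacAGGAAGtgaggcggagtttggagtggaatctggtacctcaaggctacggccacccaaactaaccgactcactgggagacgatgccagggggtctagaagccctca
Blnk: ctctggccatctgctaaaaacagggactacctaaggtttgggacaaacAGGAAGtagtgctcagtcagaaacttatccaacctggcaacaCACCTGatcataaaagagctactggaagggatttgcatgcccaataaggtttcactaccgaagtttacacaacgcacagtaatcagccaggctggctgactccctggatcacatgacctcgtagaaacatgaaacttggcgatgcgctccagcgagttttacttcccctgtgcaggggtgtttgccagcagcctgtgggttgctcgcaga
Plcg2: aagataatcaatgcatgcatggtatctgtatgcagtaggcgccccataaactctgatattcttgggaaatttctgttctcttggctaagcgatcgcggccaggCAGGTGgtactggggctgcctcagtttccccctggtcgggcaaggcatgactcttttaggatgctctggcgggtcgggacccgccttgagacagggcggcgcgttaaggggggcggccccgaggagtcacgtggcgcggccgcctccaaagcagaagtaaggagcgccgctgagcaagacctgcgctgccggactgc
Bank1: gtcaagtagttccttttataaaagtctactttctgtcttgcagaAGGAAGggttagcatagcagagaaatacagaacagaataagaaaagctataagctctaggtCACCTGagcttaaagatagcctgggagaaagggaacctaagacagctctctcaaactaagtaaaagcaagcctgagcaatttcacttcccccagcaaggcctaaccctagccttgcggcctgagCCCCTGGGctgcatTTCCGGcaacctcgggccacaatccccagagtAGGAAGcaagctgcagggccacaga

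The table held 8 promoters for 7 of the genes, 2 of them for Syk. The E box CAGGTG stood in 7 of the 8, at -154 from the start in Cd79a, -160 in Blnk, -147 in Plcg2 and -145 in Bank1, and in 20.2% of all 32851 promoters of this length. The ETS core AGGAAG stood in 4 of the 8, those of Cd79a, Blnk, Btk and Bank1, and in 35.4% of all promoters. The EBF1 palindrome was found in the Bank1 promoter only (CCCCTGGG at -21) and in 13.7% of all, CAGCTG in 1 Syk promoter and in 16.3% of all, and CCGGAA in the Bank1 promoter and in 14.9% of all. No matches overlapped. A match is a description of letters in this window. Other forms of these sites were not searched, so a promoter without a match may still hold such a site.

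Against the WT B220+ cells, 8 of the 9 genes fell in the Pax5+/- leukaemias and all 9 fell in the both-copies leukaemias (limma, Benjamini-Hochberg adjusted p under 0.05 over all genes). Of all genes, 18.9% fell and 12.9% rose in the Pax5+/- leukaemias, and 11.9% fell and 9.48% rose in the both-copies leukaemias. The median change of the 9 genes was -1.84 in the Pax5+/- leukaemias (-0.06 over all genes) and -2.70 in the both-copies leukaemias (-0.07 over all genes). The exception in the Pax5+/- leukaemias was Plcg2. Every one of the other 8 except Blk lay lower on all 7 Pax5+/- arrays than on any B220+ array, 7 of 9 genes, as did 11.4% of all genes. In the both-copies leukaemias all 9 genes lay below every B220+ array, as did 26.6% of all genes.

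**Figure D2:**
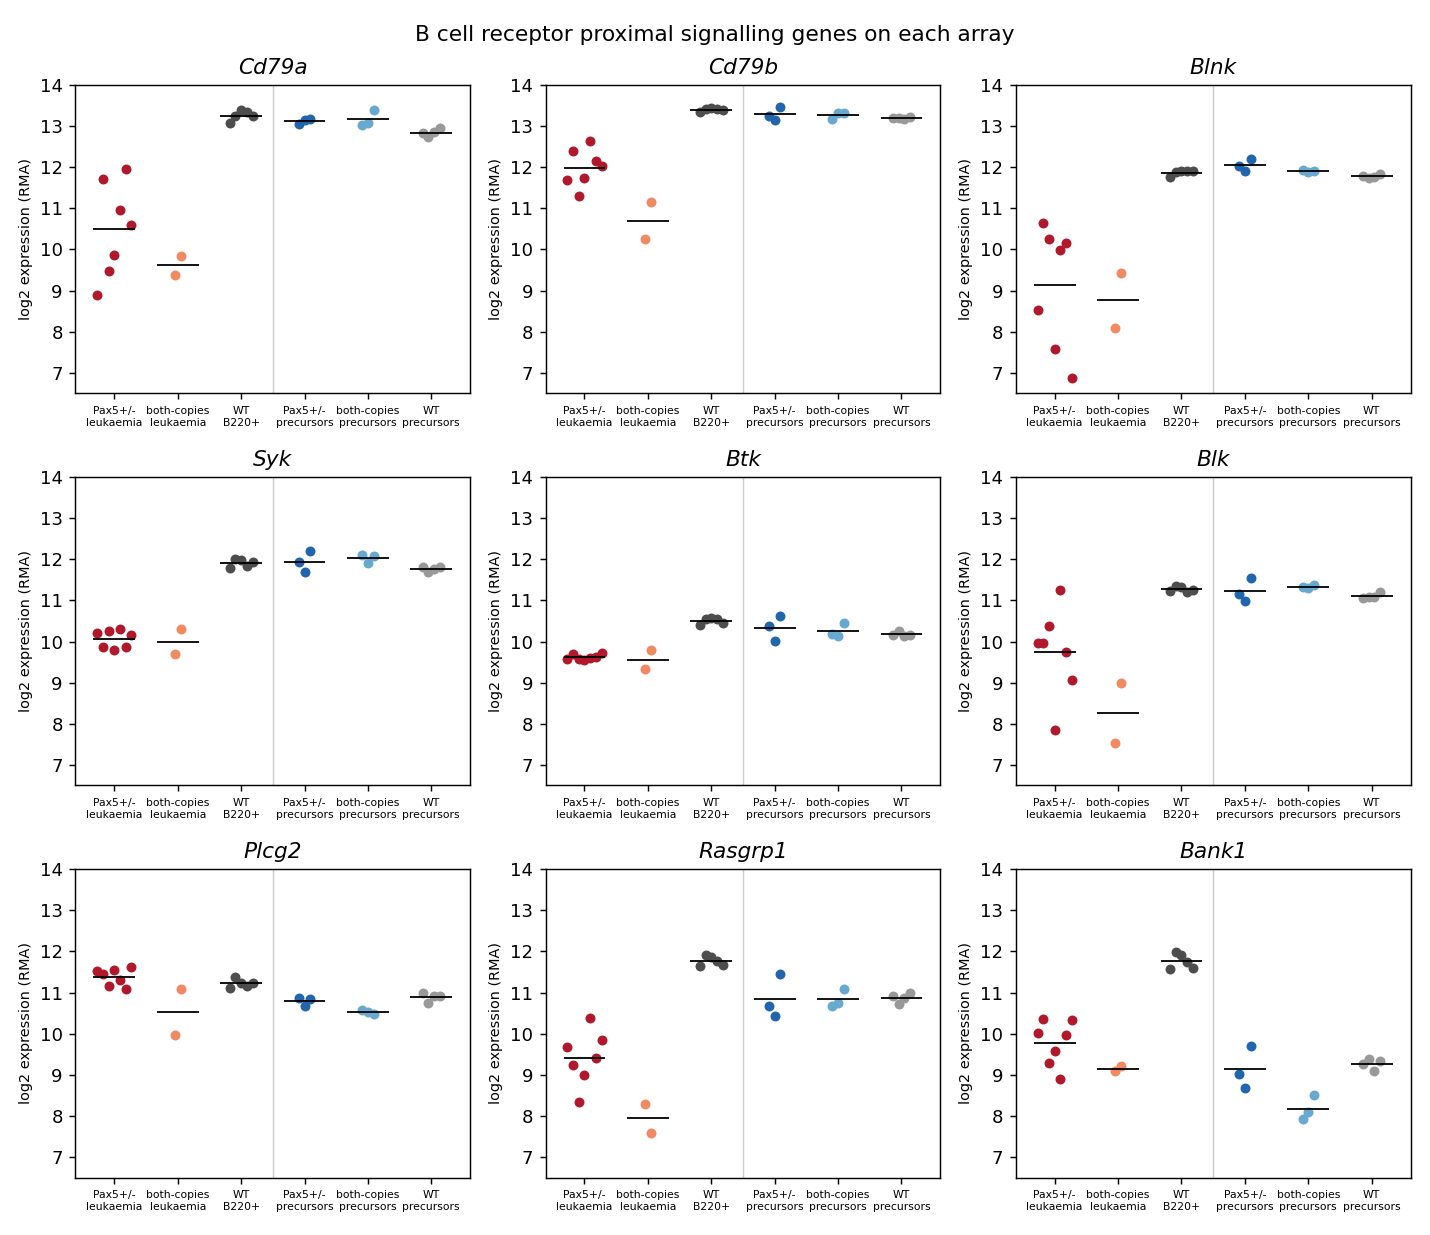
Log2 expression of the 9 genes on each of the 24 arrays (points) with group means (lines), leukaemia set left of the grey line and precursor set right of it. The leukaemias lie below the sorted cells for all genes but Plcg2, Bank1 against the precursors, and Blk in Pax5+/- leukaemia 5; Blnk, Blk and Cd79a are spread widely among the Pax5+/- leukaemias, and Btk and Syk are not.

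The receptor's signalling chains fell in both leukaemia groups. Cd79a (Ig-alpha, probe set 10551025) had a lowest, median and highest level of 8.88, 10.59 and 11.95 in the Pax5+/- leukaemias and levels of 9.39 and 9.84 in the both-copies leukaemias, against 13.06, 13.24, 13.40, 13.34 and 13.25 in the B220+ cells. No leukaemia came within 1 log2 unit of the B220+ cells. The log2 change of Cd79a was -2.76 ± 0.47 in the Pax5+/- leukaemias (SE, adjusted p = 0.000692) and -3.64 ± 0.67 in the both-copies leukaemias (adjusted p = 0.00214); errors of changes are SE throughout. In the precursors it stood at 13.06, 13.15 and 13.17 (Pax5+/-), 13.02, 13.08 and 13.39 (both copies) and 12.84, 12.73, 12.85 and 12.95 (WT). Both oncogene-bearing precursor groups thus lay above every WT precursor array and within or near the range of the B220+ cells.

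Cd79b (Ig-beta, probe set 10392142) had 11.31, 12.03 and 12.64 in the Pax5+/- leukaemias and 10.24 and 11.15 in the both-copies leukaemias, against 13.34, 13.42, 13.43, 13.42 and 13.39 in the B220+ cells. The 3 groups did not overlap. The change was -1.41 ± 0.21, adjusted p = 0.000312, in the Pax5+/- leukaemias and -2.70 ± 0.30, adjusted p = 8.85e-05, in the both-copies leukaemias. Among precursors Cd79b was nearly level, at 13.23, 13.14 and 13.48 (Pax5+/-), 13.17, 13.33 and 13.32 (both copies) and 13.18, 13.20, 13.18 and 13.22 (WT), with overlapping arrays. The smaller fall of Cd79b than of Cd79a in the Pax5+/- leukaemias is a difference between 2 probe sets and was not tested.

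Of the kinases, Syk (probe set 10405216), which docks on the phosphorylated chains, ranged over 9.78 to 10.29 in the Pax5+/- leukaemias with a median of 10.17 and read 9.69 and 10.30 in the both-copies leukaemias, against 11.78, 12.00, 11.98, 11.83 and 11.93 in the B220+ cells. All 9 leukaemias were lower than all other arrays, by similar amounts. Syk changed by -1.84 ± 0.12, adjusted p = 4.8e-07, in the Pax5+/- leukaemias and by -1.91 ± 0.17, adjusted p = 1.79e-05, in the both-copies leukaemias. Its level in the 10 precursor arrays was 11.69 to 12.21.

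Btk (probe set 10606694), the Tec family kinase whose loss stops B cell development in human patients and blunts it in mice, was the most even gene among the Pax5+/- leukaemias, at 9.56, 9.60 and 9.71 (SD 0.06), and read 9.32 and 9.79 in the both-copies leukaemias, against 10.41, 10.56, 10.57, 10.55 and 10.45 in the B220+ cells. The leukaemias again lay below all B220+ arrays. The change was -0.89 ± 0.07, adjusted p = 2.37e-06, in the Pax5+/- leukaemias and -0.95 ± 0.10, adjusted p = 5.42e-05, in the both-copies leukaemias, the smallest falls of the 8 genes that fell in both. Btk lies on the X chromosome. Xist, the RNA of the inactive X, was high on all 9 WT arrays. It was high on 3 of 7 Pax5+/- leukaemias, 1 of 2 both-copies leukaemias, 1 of 3 Pax5+/- precursors and 0 of 3 both-copies precursors. The part of sex in the values of Btk and of the other genes was not tested.

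Blk (probe set 10420758), the Src family kinase of B cells, had 7.86, 9.96 and 11.24 in the Pax5+/- leukaemias and 7.53 and 8.98 in the both-copies leukaemias, against 11.22, 11.35, 11.33, 11.20 and 11.25 in the B220+ cells. Pax5+/- leukaemia 5 reached the B220+ level, while Pax5+/- leukaemia 4 and both-copies leukaemia 1 were more than 3 log2 units below it. Blk changed by -1.53 ± 0.46, adjusted p = 0.0234, in the Pax5+/- leukaemias, a call lost without B220+ array 2 (-1.51, adjusted p = 0.0521) and with the replicate number as a block (-1.39, adjusted p = 0.0678). In the both-copies leukaemias it changed by -3.01 ± 0.66, adjusted p = 0.00625, or -2.29, adjusted p = 0.104, without both-copies leukaemia 1.

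The adaptor Blnk (probe set 10467508), on which Syk assembles Btk and Plcg2, varied more among the Pax5+/- leukaemias than any other of the 9 genes (SD 1.49). Arrays 1 to 7 read 8.52, 10.65, 10.26, 7.57, 9.98, 10.15 and 6.86. Arrays 2, 3, 5 and 6 lay near 10 or above, and arrays 1, 4 and 7 lay between 6.86 and 8.52, with nothing in between. The both-copies leukaemias had 8.10 and 9.43, against 11.76, 11.88, 11.91, 11.91 and 11.90 in the B220+ cells, so that every leukaemia was lower than every B220+ array. Blnk changed by -2.73 ± 0.62, adjusted p = 0.00489, in the Pax5+/- leukaemias and by -3.11 ± 0.88, adjusted p = 0.0247, in the both-copies leukaemias; the call in the both-copies leukaemias was lost without both-copies leukaemia 1 (-2.44, adjusted p = 0.214) and with array weights (-3.13, adjusted p = 0.0792).

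Bank1 (probe set 10502335), a B cell scaffold that is phosphorylated after receptor ligation and takes part in calcium release, was high in the B220+ cells alone. It had 8.90, 9.97 and 10.35 in the Pax5+/- leukaemias and 9.09 and 9.21 in the both-copies leukaemias, against 11.58, 11.99, 11.91, 11.74 and 11.60 in the B220+ cells. The Pax5+/- precursors had 9.02, 8.69 and 9.71, the both-copies precursors 7.92, 8.09 and 8.51 and the WT precursors 9.27, 9.38, 9.10 and 9.33. The leukaemias were therefore below the B220+ cells (-1.99 ± 0.23, adjusted p = 4.03e-05, in the Pax5+/- leukaemias; -2.62 ± 0.33, adjusted p = 0.000173, in the both-copies leukaemias) but overlapped the WT precursors.

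Plcg2 (probe set 10575799), the phospholipase that makes the second messengers of the receptor, had 11.09, 11.46 and 11.62 in the Pax5+/- leukaemias, 9.97 and 11.10 in the both-copies leukaemias and 11.12, 11.38, 11.23, 11.17 and 11.23 in the B220+ cells. The Pax5+/- leukaemias straddled the B220+ range, and the change of 0.16 ± 0.16, adjusted p = 0.463, did not pass. The both-copies leukaemias were both below it (-0.69 ± 0.23, adjusted p = 0.047), but 1 of them by little: without both-copies leukaemia 1 the change was -0.13, adjusted p = 0.694, and without both-copies leukaemia 2 it was -1.26, adjusted p = 0.000362. This call was also lost on leaving out any of 10 other arrays, all but Pax5+/- leukaemias 6 and 7 (adjusted p up to 0.694 over all single arrays), and with quantile normalization, cyclic loess, array weights or the replicate block.

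Rasgrp1 (probe set 10486061), which loads Ras with GTP on diacylglycerol binding and is best known from T cells, had 8.34, 9.42 and 10.38 in the Pax5+/- leukaemias and 8.30 and 7.59 in the both-copies leukaemias, against 11.64, 11.91, 11.88, 11.76 and 11.66 in the B220+ cells. No arrays of the 3 groups overlapped. It changed by -2.36 ± 0.28, adjusted p = 5.05e-05, in the Pax5+/- leukaemias and by -3.82 ± 0.40, adjusted p = 4.75e-05, in the both-copies leukaemias, the largest fall of any of the 9 genes in any comparison here.

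**Figure D3:**
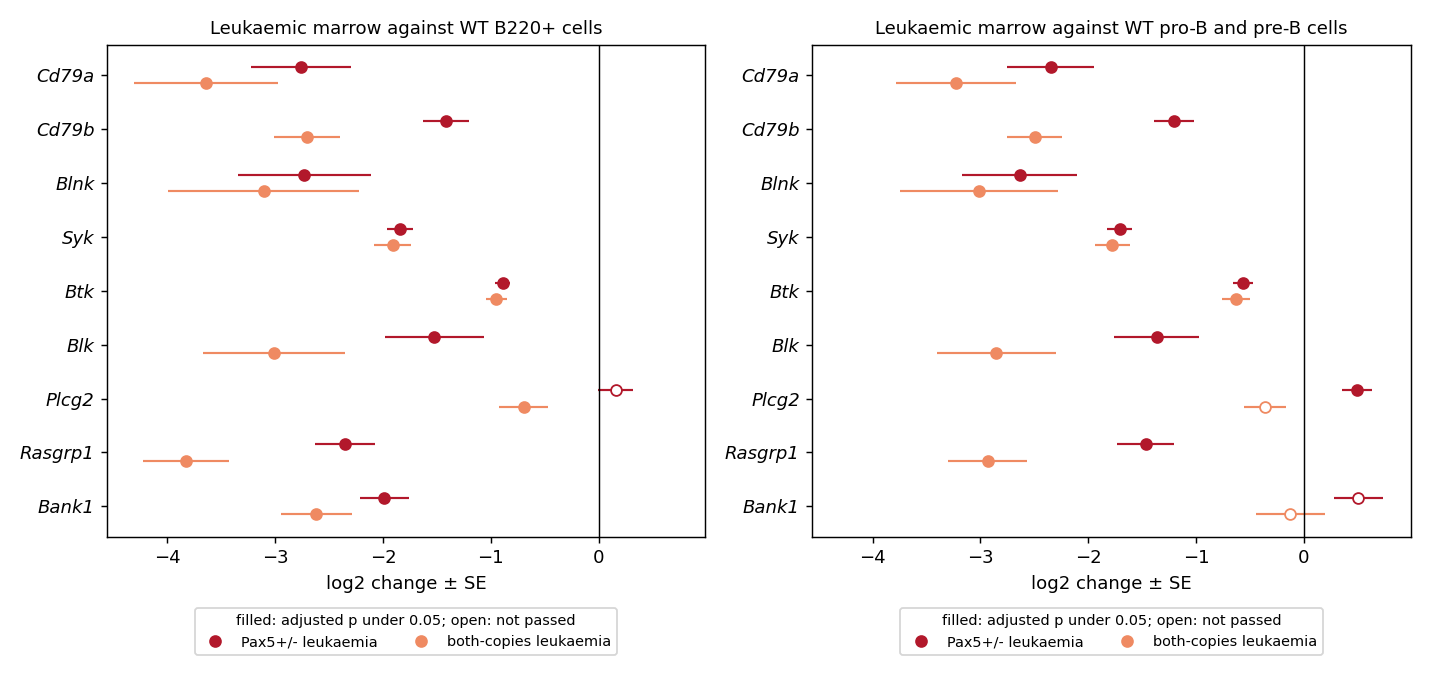
Log2 change ± SE of each gene in the Pax5+/- leukaemias (dark red) and the both-copies leukaemias (orange), against WT B220+ cells (left) and WT precursors (right). Cd79a, Cd79b, Blnk, Syk, Btk, Blk and Rasgrp1 are lower against either kind of cell, whereas Bank1 is at -1.99 ± 0.23 in the Pax5+/- leukaemias against B220+ cells and 0.51 ± 0.23 against precursors.

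B220+ marrow holds mature B cells too, so the leukaemias were also set against precursors. Against WT precursors, 7 of the 9 genes fell in the Pax5+/- leukaemias and the same 7 in the both-copies leukaemias: Cd79a, Cd79b, Blnk, Syk, Btk, Blk and Rasgrp1. Of all genes, 19.6% and 12% fell in these comparisons, which share the WT arrays. The falls in the Pax5+/- leukaemias ran from -0.56 ± 0.09 for Btk to -2.64 ± 0.53 for Blnk, and in the both-copies leukaemias from -0.63 ± 0.13 for Btk to -3.23 ± 0.55 for Cd79a. Plcg2 was higher in the Pax5+/- leukaemias than in all 4 WT precursors (0.49 ± 0.14, adjusted p = 0.0119), while 12.7% of all genes were called higher. For arrays without overlap in this comparison no share of all genes is given. In the both-copies leukaemias Plcg2 was at -0.36 ± 0.19, adjusted p = 0.193. Bank1 passed in neither (0.51 ± 0.23, adjusted p = 0.0994, in the Pax5+/- leukaemias; -0.12 ± 0.32, adjusted p = 0.821, in the both-copies leukaemias). With the groups compared alone in the fit, the fall of Blk in the Pax5+/- leukaemias was lost (-1.37, adjusted p = 0.0633). Without Pax5+/- leukaemia 5 Bank1 passed (0.65, adjusted p = 0.0178), as it did with cyclic loess or array weights. Without both-copies leukaemia 1 the falls of Blnk (-2.35, adjusted p = 0.115) and Btk (-0.39, adjusted p = 0.0962) no longer passed, and without both-copies leukaemia 2 the difference of Plcg2 did (-0.93, adjusted p = 0.000195).

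Each leukaemia was then compared with the preleukaemic precursors of its own genotype. In the Pax5+/- leukaemias the same 7 genes fell, from -0.71 ± 0.10 for Btk to -2.90 ± 0.58 for Blnk, and 2 rose, Plcg2 (0.59 ± 0.16, adjusted p = 0.00528) and Bank1 (0.64 ± 0.25, adjusted p = 0.0468); 28.4% of all genes fell and 16.4% rose. All 7 leukaemias had more Plcg2 than all 3 precursors, and no share of all genes is given for such arrays. Bank1 overlapped. Its call held on leaving out 8 of 24 arrays in turn and was lost for the other 16 (adjusted p from 0.00759 to 0.266). Without Pax5+/- precursor 2 the change of Bank1 was 0.42, adjusted p = 0.266. The call of Bank1 was also lost with quantile normalization (0.55, adjusted p = 0.0874), median centring (0.53, adjusted p = 0.0874), the replicate block (0.63, adjusted p = 0.074) and with the groups compared alone in the fit (0.64, adjusted p = 0.164). The fall of Blk was lost without Pax5+/- precursor 3 (-1.34, adjusted p = 0.0515) and with the groups compared alone in the fit (-1.49, adjusted p = 0.0744). In the both-copies leukaemias the same 7 fell, from -0.69 ± 0.14 for Btk to -3.55 ± 0.58 for Cd79a, with 27.6% of all genes falling, and Bank1 rose (0.97 ± 0.34, adjusted p = 0.0244; 18.1% of all genes rose). Bank1 did not pass without both-copies leukaemia 1 (1.03, adjusted p = 0.0716) or 2 (0.91, adjusted p = 0.103) or without both-copies precursor 1 (0.85, adjusted p = 0.0714) or 2 (0.93, adjusted p = 0.0587), nor with quantile normalization (0.68, adjusted p = 0.12) or array weights (0.98, adjusted p = 0.134), and Blnk did not without both-copies leukaemia 1 (-2.48, adjusted p = 0.0538). Btk was at -0.46, adjusted p = 0.0269, without that array, and its call was lost with the groups compared alone in the fit (-0.69, adjusted p = 0.0723). Plcg2 stood at 0.00 ± 0.21, adjusted p = 0.993, the mean of leukaemias on either side of the precursors: it was 0.57, adjusted p = 0.0118, without both-copies leukaemia 1 and -0.56, adjusted p = 0.0103, without both-copies leukaemia 2.

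Between the leukaemias, which differ in Pax5 copies, 1 of the 9 genes passed: Cd79b was higher in the Pax5+/- leukaemias (1.29 ± 0.29, adjusted p = 0.0427), on all 7 arrays. Of all genes 1.87% passed and 0.712% were higher. Rasgrp1 was also higher on every Pax5+/- array than on both both-copies arrays (1.47 ± 0.38, adjusted p = 0.0761; 4.25% of all genes lay so), and Plcg2 had a like shift with overlap (0.85 ± 0.22, adjusted p = 0.0736), but neither passed. The other 6 had differences from 0.06 ± 0.10 for Btk to 1.49 ± 0.63 for Blk. With only 2 both-copies leukaemias these calls moved easily. That of Cd79b held on leaving out Pax5+/- leukaemia 3 or 5 or both-copies leukaemia 2 and was lost for the other 11 arrays (0.84, adjusted p = 0.481, without both-copies leukaemia 1); it was lost with array weights and with the replicate block, and the blocked fit called 0 of the 9 genes. Without both-copies leukaemia 2, Plcg2 (1.42, adjusted p = 0.000354) and Btk (0.29, adjusted p = 0.0445) passed, and without Pax5+/- leukaemia 3, Rasgrp1 did (1.65, adjusted p = 0.0162). With all 24 arrays in the fit, 3 genes passed: Cd79b, Plcg2 and Rasgrp1. Of the neutrophil markers 8 of 13 were lower in the Pax5+/- leukaemias, among them Fcnb (-3.44 ± 0.33, adjusted p = 0.000166) and Prtn3 (-3.98 ± 0.44, adjusted p = 0.0004), and their part in these differences was not tested. The B lineage markers had a median change of 0.82, beside 0.02 over all genes, and 1 of 10 passed as higher. Pax5 itself had a mean level of 10.07 in the Pax5+/- leukaemias and 8.24 in the both-copies leukaemias. The part of B lineage content and of the Pax5 level was not tested either.

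In the Pax5+/- precursors 0 of the 9 genes passed against WT precursors in limma, while 4.17% of all genes passed. At an unadjusted p under 0.05 there were 2 genes, and no share of all genes is given for that threshold. Blnk (12.03, 11.91 and 12.19 in the Pax5+/- precursors, against 11.79, 11.73, 11.76 and 11.83 in the WT precursors) lay higher on all 3 arrays, as did Cd79a; their changes were 0.27 ± 0.07, adjusted p = 0.057, and 0.28 ± 0.09, adjusted p = 0.111. Of all genes, 12.3% had such higher, non-overlapping arrays. Blnk passed with quantile normalization, cyclic loess and array weights and without Pax5+/- precursor 2 (0.33, adjusted p = 0.0418); Cd79a passed with array weights and without both-copies precursor 3 (0.28, adjusted p = 0.0398). The other 7 genes changed by -0.13 ± 0.22 (Bank1) to 0.17 ± 0.11 (Syk).

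In the both-copies precursors 3 of 9 genes passed against WT precursors, and 27.1% of all genes did. Xist was high on 0 of the 3 both-copies arrays and on all 4 WT arrays, so oncogene and sex cannot be told apart here. Cd79a rose (0.32 ± 0.09, adjusted p = 0.0316), and Plcg2 (-0.36 ± 0.07, adjusted p = 0.00897) and Bank1 (-1.10 ± 0.22, adjusted p = 0.00924) fell. The Plcg2 levels were 10.59, 10.53 and 10.47 in the both-copies precursors, against 10.99, 10.75, 10.93 and 10.91 in the WT precursors, without overlap; the fall of Bank1 was the largest of the 9 in precursors. Of all genes, 22.9% lay lower and 19.3% higher without overlap. Syk (0.26 ± 0.11, adjusted p = 0.0987), Blk (0.22 ± 0.11, adjusted p = 0.154) and Blnk (0.13 ± 0.07, adjusted p = 0.163) did not pass, though their arrays did not overlap those of WT precursors. These calls depended on scaling: with quantile normalization and with cyclic loess Blnk, Syk and Blk passed as higher and Plcg2 no longer passed (-0.18, adjusted p = 0.0773; -0.16, adjusted p = 0.123), giving 5 genes, and Bank1 and Cd79a passed in both. Cd79a was lost with median centring (0.29, adjusted p = 0.0508) and without both-copies precursor 3 (0.21, adjusted p = 0.0929) or WT precursor 1 (0.32, adjusted p = 0.0696), 2 (0.28, adjusted p = 0.082) or 3 (0.32, adjusted p = 0.0709). Without Pax5+/- precursor 2, Syk passed (0.26, adjusted p = 0.0387), and without Pax5+/- precursor 3, Syk (0.26, adjusted p = 0.0335) and Blk (0.22, adjusted p = 0.0341). With all 24 arrays in the fit, Bank1 alone passed.

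NK cell markers were lower in the oncogene-bearing precursors, 7 of 9 in the both-copies and 3 of 9 in the Pax5+/- precursors, among them Ncr1, an activating NK receptor (-2.69 ± 0.35, adjusted p = 0.00303, and -1.90 ± 0.35, adjusted p = 0.0261). Their mean level was 7.00 to 8.07 in the Pax5+/- precursors and 6.61 to 7.82 in the both-copies precursors, against 8.34 to 9.08 in the WT precursors. Their part in the changes of Plcg2 and Bank1 was not tested.

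**Figure D4:**
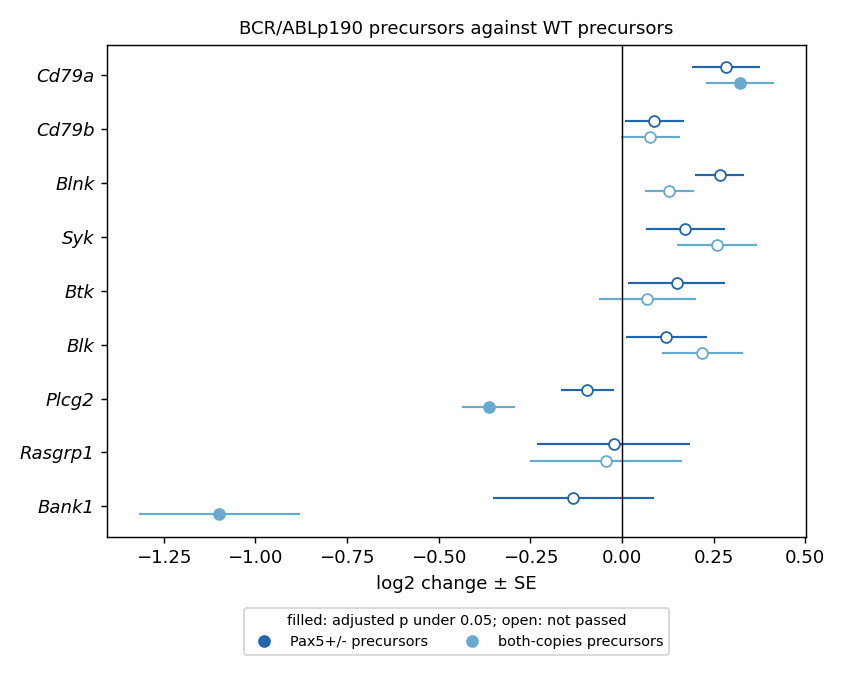
Log2 change ± SE of each gene in the Pax5+/- precursors (dark blue) and the both-copies precursors (light blue) against WT precursors. Cd79a, Plcg2 and Bank1 pass in the both-copies precursors, and no gene passes in the Pax5+/- precursors.

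Between the oncogene-bearing precursors 0 of 9 genes passed in limma, while 0.0251% of all genes passed. At an unadjusted p under 0.05 there were 2 genes, and no share of all genes is given for that threshold. Bank1 (0.96 ± 0.23, adjusted p = 0.171) and Plcg2 (0.27 ± 0.08, adjusted p = 0.201) were higher on all 3 Pax5+/- arrays than on all 3 both-copies arrays, and 7.05% of all genes had such arrays. Whether the effect of the Pax5 copies differed between leukaemias and precursors was tested as an interaction. It passed for 0 of 9 genes in limma, with 0.692% of all genes passing. At an unadjusted p under 0.05 there were 4 genes, and no share of all genes is given for that threshold. The smallest adjusted p was that of Cd79b (1.28 ± 0.34, adjusted p = 0.0859). Cd79b passed without Pax5+/- leukaemia 3 (1.39, adjusted p = 0.0276) and, with Plcg2 (1.15, adjusted p = 0.000556), without both-copies leukaemia 2 (1.74, adjusted p = 0.00434).

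The WT groups were also compared with each other, and they are not shown to be successive stages. Of the pro-B and pre-B markers 0 of 10 passed between them (median change -0.53). NK cell markers had a median change of -1.40 in the B220+ cells, with 1 of 9 passing as lower. The part of such differences in cell content was not tested. In the B220+ cells 2 of the 9 genes passed as higher than in WT precursors, Bank1 (2.49 ± 0.25, adjusted p = 3.29e-06) and Btk (0.32 ± 0.10, adjusted p = 0.0487), and 4.57% of all genes did. All 9 means were higher in the B220+ cells, and for 6 genes (Cd79a, Cd79b, Btk, Plcg2, Rasgrp1 and Bank1) every B220+ array lay above every precursor array, as for 11.2% of all genes. This fit shares its spread with the variable leukaemias. With the 9 WT arrays alone the same 6 genes passed in limma. Rasgrp1 was at 0.89, adjusted p = 1.77e-05, and Cd79a at 0.41, adjusted p = 0.00177. No share of all genes is given for that fit, so this count has no background beside it. In the fit on all arrays the call of Btk held on leaving out 5 of the 24 arrays in turn and was lost for the other 19 (adjusted p from 0.0158 to 0.129), and was lost with the spread following intensity and with the replicate block. Rasgrp1 gained a call with quantile normalization, median centring, cyclic loess, array weights and dim genes left out, and Plcg2 with array weights. Rasgrp1 also gained a call without Pax5+/- leukaemia 3 (0.89, adjusted p = 0.0173) or 5 (0.89, adjusted p = 0.0236), either both-copies leukaemia (0.89, adjusted p = 0.0472) or Pax5+/- precursor 3 (0.89, adjusted p = 0.0429), and Plcg2 without either both-copies leukaemia (0.33, adjusted p = 0.0254). All 9 measured mature B markers were higher in the B220+ cells, among them the complement receptor Cr2 and the IgE receptor Fcer2a.

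Ordered by group mean, Cd79a, Cd79b, Blnk, Syk, Btk, Blk and Rasgrp1 were each highest in sorted cells and lowest in the both-copies leukaemias, with the Pax5+/- leukaemias next to last. In these 7 genes the step between the lowest sorted group and the Pax5+/- leukaemias was free of overlap except in Blk. The 7 were picked by this order, which leaves out Plcg2 and Bank1. For that step no share of all genes is given, so the overlap has no background beside it. The step between the leukaemia groups overlapped except in Cd79b and Rasgrp1. Neighbouring sorted groups overlapped, apart from Cd79a between the Pax5+/- and the WT precursors and Rasgrp1 between the B220+ cells and the WT precursors. Plcg2 had its highest mean in the Pax5+/- leukaemias, overlapping the B220+ cells, and its lowest in the both-copies precursors. Bank1 was highest in the B220+ cells, apart from all others, and lowest in the both-copies precursors, again apart from all others.

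Within the 7 Pax5+/- leukaemias each gene was related to Pax5 and to the means of the B lineage and macrophage markers. These 27 relations were each tested by exact permutation of Pearson's r and of Spearman's rho, adjusted separately. The tests were two-sided, and the smallest possible p for Spearman's rho was 0.000397. None passed after Benjamini-Hochberg adjustment. The receptor chains followed the B lineage markers most closely. For Cd79a Pearson's r = 0.9 (exact permutation p = 0.0105, adjusted p = 0.142) and Spearman's rho = 0.929 (exact permutation p = 0.0067, adjusted p = 0.111). For Cd79b Pearson's r = 0.888 (exact permutation p = 0.0085, adjusted p = 0.142) and Spearman's rho = 0.893 (exact permutation p = 0.0123, adjusted p = 0.111). Without the 2 arrays farthest from the median, numbers 5 and 6, r was 0.919 for Cd79a and 0.985 for Cd79b. Blnk had r = 0.43 (exact permutation p = 0.331, adjusted p = 0.61) and rho = 0.143 (exact permutation p = 0.782, adjusted p = 0.906).

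**Figure D5:**
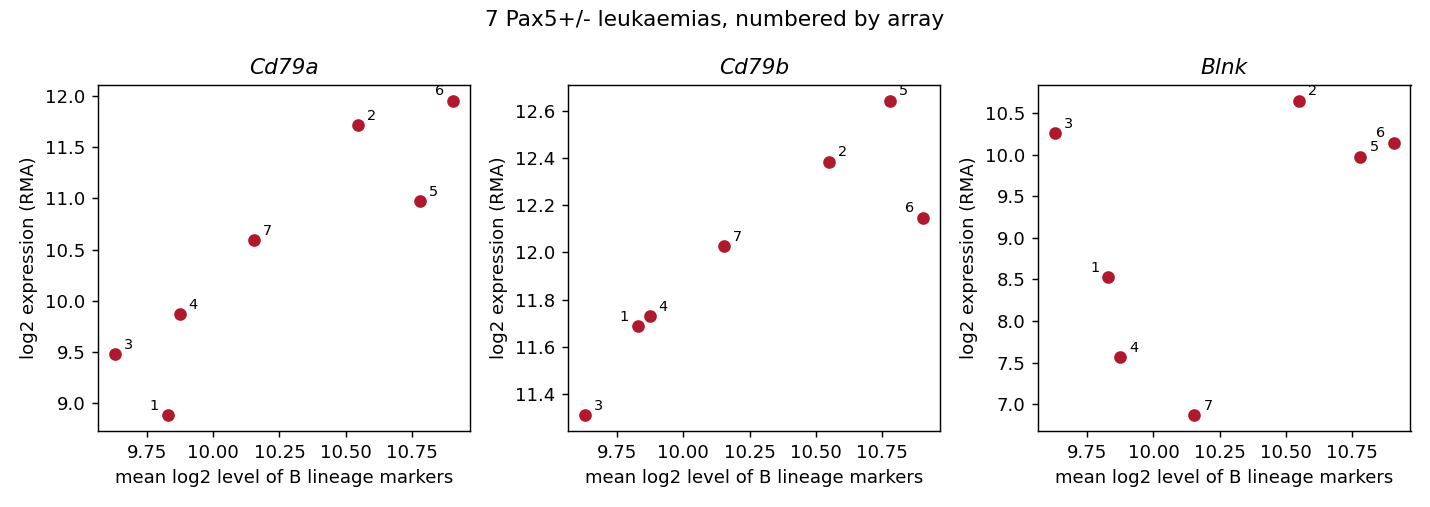
Log2 level of Cd79a, Cd79b and Blnk (vertical) against the mean log2 level of 10 B lineage markers (horizontal) in the 7 Pax5+/- leukaemias, numbered by array. The receptor chains order with the markers, while Blnk splits into arrays 2, 3, 5 and 6 above and 1, 4 and 7 below.

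Against Pax5, the transcription factor named above, Blk had r = -0.706 (exact permutation p = 0.0738, adjusted p = 0.61) and rho = -0.893 (exact permutation p = 0.0123, adjusted p = 0.111), and r = -0.577 without the 2 arrays farthest from the median. Cd79a had r = 0.261 (exact permutation p = 0.555, adjusted p = 0.727) and rho = 0.179 (exact permutation p = 0.713, adjusted p = 0.906). Blnk had r = -0.485 (exact permutation p = 0.268, adjusted p = 0.61) and rho = -0.357 (exact permutation p = 0.444, adjusted p = 0.706), with r = -0.893 without those 2 arrays. Leukaemia 7, with the highest Pax5 level of the 7, had the lowest Blnk. Of the relations with macrophage markers 0 had a Pearson or Spearman p under 0.05 before adjustment. Without arrays 5 and 7, the 2 farthest from the median, r for Syk moved from -0.24 to 0.979, the only change of sign there. For Blk it moved from 0.087 to 0.732. With the B lineage markers, r for Bank1 moved from 0.037 to 0.841 without arrays 5 and 6. Pax5 itself changed by -2.26 ± 0.53, adjusted p = 0.0063, in the Pax5+/- leukaemias and by -4.09 ± 0.76, adjusted p = 0.00241, in the both-copies leukaemias against B220+ cells, and by -0.11 ± 0.10, adjusted p = 0.543, in the Pax5+/- precursors against WT.

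Other genes of the pathway were read from 2 lists. Of 18 measured coreceptor and inhibitory genes, 10 fell and 1 rose in the Pax5+/- leukaemias and 10 fell and 0 rose in the both-copies leukaemias against B220+ cells. The median changes were -0.69 in the Pax5+/- and -0.93 in the both-copies leukaemias, beside -0.06 and -0.07 over all genes, of which 18.9% and 11.9% fell. In the Pax5+/- leukaemias these included Cr2, which lowers the threshold of the receptor, the inhibitory lectin Siglecg (-3.29 ± 0.33) and the inhibitory adaptor Dok3 (-2.73 ± 0.29). In the both-copies leukaemias they included Cr2, the inhibitory lectin Cd22 (-3.56 ± 0.43) and Csk, the kinase that restrains Src family kinases (-1.35 ± 0.18). Cr2 stood at 5.29 to 6.47 in the Pax5+/- leukaemias and 5.44 to 6.25 in the both-copies leukaemias, against 8.99 to 10.27 in the B220+ cells. It was at 5.49 to 5.56 in the WT precursors, and Xist where low was at most 6.49, and without detection calls no size is given for the fall of Cr2. Of 22 genes downstream of the receptor, 12 fell and 1 rose in the Pax5+/- leukaemias and 11 fell and 1 rose in the both-copies leukaemias, with medians of -0.39 and -0.68, beside -0.06 and -0.07 over all genes. The calcium channel Itpr2 was at -1.20 ± 0.11 in the Pax5+/- leukaemias and -1.98 ± 0.16 in the both-copies leukaemias, and Pik3ap1 (BCAP), which links the receptor to PI3 kinase, at -1.60 ± 0.16 and -2.08 ± 0.23. The genes that rose were the phosphatase Ptpn22 (1.82 ± 0.28, adjusted p = 0.00036) and the Rac activator Vav3 (1.48 ± 0.14, adjusted p = 1.13e-05) in the Pax5+/- leukaemias, and Vav3 (1.12 ± 0.20, adjusted p = 0.00198) in the both-copies leukaemias.

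Against WT precursors, 1.23% of all genes rose and 2.94% fell in the Pax5+/- precursors, and 11.6% rose and 15.5% fell in the both-copies precursors. Of the lists, 1 of 18 coreceptor and inhibitory genes rose in the Pax5+/- precursors, Dok3 (0.34 ± 0.08, adjusted p = 0.0495), and 1 of 22 downstream genes fell, Rasgrp3 (-0.90 ± 0.15, adjusted p = 0.0211), the Ras activator of B cells. In the both-copies precursors 1 coreceptor or inhibitory gene rose, Dok3 (0.29 ± 0.08, adjusted p = 0.0302), and 3 fell, the phosphatases Ptpn6 (-0.33 ± 0.07, adjusted p = 0.0112) and Ptpn22 (-1.08 ± 0.31, adjusted p = 0.0297) and Cd22 (-0.40 ± 0.10, adjusted p = 0.018), and 1 downstream gene fell, the adaptor Shc1 (-0.29 ± 0.08, adjusted p = 0.0322). Between the leukaemias 3 of 22 downstream genes passed: Itpr2 (0.78 ± 0.16, adjusted p = 0.0229) and the PI3 kinase subunit Pik3cd (1.00 ± 0.22, adjusted p = 0.0385) were higher in the Pax5+/- leukaemias and Shc1 was lower (-0.55 ± 0.12, adjusted p = 0.0339).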

How the data were processed

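RNA of 24 mouse marrow samples was measured on Affymetrix gene arrays. The values used are log2 expression levels as deposited by the authors, 1 per probe set; per the submitters' processing notes they were made with RMA in the oligo package, with no version stated there. Of 35556 probe sets, 21789 had 1 gene symbol in the platform annotation, 1621 several and 12146 none. Genes with several probe sets (999) were represented by that with the highest mean, which touches none of the 9 genes described. Groups came from the sample labels. Nothing says that replicates are separate litters or days, so p-values measure the spread between these samples.

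Changes were tested with limma 3.58.1 in R 4.3.3 (lmFit, eBayes), Benjamini-Hochberg adjusted over 19938 genes, with a threshold of 0.05. Fits used the 14 leukaemia and B220+ arrays, the 10 precursor arrays, or all 24 where a comparison crosses these sets. Correlations used exact permutation (Python 3.11.15, scipy 1.17.1). Alternatives were quantile normalization, median centring, cyclic loess, array weights, a trend in the spread, a filter on dim genes, other arrays in the fit, the replicate number as a block, and leaving out each array.

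Between same-numbered Pax5+/- and both-copies precursors, deviations from the group means had a lowest r of 0.208 over 3 pairs. The blocked fit there called 0 of the 9 genes, as did the fit without the block. The next lowest r were 0.167 between both-copies leukaemias and both-copies precursors (2 pairs) and 0.083 between B220+ cells and both-copies precursors (3 pairs). No cut-off was set and arrays of unlike number were not correlated, so this check does not settle whether any groups were paired. The genes, lists and tests were chosen with earlier results of these data known. From each list, up to 3 genes are named, by the lowest adjusted p among those that passed, plus Pax5 and the genes of a count of 5 or fewer. For likeness, the 2 genes with the highest r are named.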

Additional observations from a re-analysis of the deposited data

Results flagged for a closer look

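Among 27 sets of 4, 5 or 7 arrays examined (9 genes in 3 groups), 1 array stood apart from its group: Blnk in WT B220+ array 1 had a log2 level of 11.76, the lowest of the 5, with the nearest at 11.88 and a gap of 0.775 of the group's range. Chance gives about 1 such case in 20. Of 9 tests of whether the Pax5 copy effect differed between leukaemias and precursors, 0 passed (limma, lowest adjusted p = 0.0859).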

How the results depend on the processing

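The 9 genes in 12 comparisons gave 108 values and 2916 alternative values. Leaving out single arrays left 1850 on the same side of the threshold, gained 21 calls, lost 72 and reversed 1; the other settings left 923, gained 25 and lost 24, and reversed 0. The reversed value was Plcg2 in both-copies leukaemias against both-copies precursors, at -0.56 without both-copies leukaemia 2 and 0.57 without both-copies leukaemia 1. Genes past the test between the leukaemias numbered 1, but 2 with cyclic loess, 0 with array weights, 0 with the replicate block, 3 with all 24 arrays in the fit and 0 to 3 on leaving out single arrays. For Pax5+/- precursors against WT the number was 0, but 1 with quantile normalization, 1 with cyclic loess, 2 with array weights and 0 to 1 without single arrays. For both-copies precursors against WT it was 3, but 5 with quantile normalization, 5 with cyclic loess, 1 with all 24 arrays and 2 to 5 without single arrays. For B220+ cells against WT precursors it was 2, but 4 with array weights, 1 with the spread following intensity, 1 with the replicate block, 6 with the 9 WT arrays alone and 1 to 4 without single arrays. The interaction gave 0, and 0 to 2 without single arrays. Against B220+ cells, leaving out single arrays gave 7 to 8 genes in the Pax5+/- and 6 to 9 in the both-copies leukaemias. No share of all genes is given beside these counts, which show only how calls moved. Where no value shows it, the cause was not tested.

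Median centring moved the median of all genes in Pax5+/- leukaemias against B220+ cells to -0.20, against -0.06 as deposited, and called 12413 genes in place of 6336. The share of calls that were higher was 40.5% as deposited, 16.4% with median centring and 54.1% with cyclic loess. For Pax5+/- precursors against WT it was 29.4% as deposited and 53.3% with quantile normalization, and for both-copies precursors 42.9%, 54.6% with quantile normalization and 31.6% with median centring. Depth has no meaning for arrays: the number of arrays, 2 in the both-copies leukaemias, limits the precision.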

Other observations

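Of 15 measured paralogues of the 9 genes, 7 rose and 1 fell in the Pax5+/- leukaemias and 5 rose and 0 fell in the both-copies leukaemias against B220+ cells, with median changes of 0.72 and 0.61 (-0.06 and -0.07 over all genes). The remaining 7 in the Pax5+/- and 10 in the both-copies leukaemias did not pass. Of all genes, 12.9% rose in the Pax5+/- and 9.48% in the both-copies leukaemias. In the Pax5+/- leukaemias the adaptors Lat (1.69 ± 0.17, adjusted p = 1.87e-05) and Lcp2 (1.77 ± 0.36, adjusted p = 0.00249) rose. So did the Src family kinase Fyn (1.18 ± 0.16, adjusted p = 0.000136), and Tec fell (-0.86 ± 0.27, adjusted p = 0.0281). In the both-copies leukaemias the Tec family kinase Bmx (1.34 ± 0.11, adjusted p = 1.02e-05), Lat (1.72 ± 0.25, adjusted p = 0.000457), Lcp2 (1.95 ± 0.52, adjusted p = 0.0174), the Src family kinase Fgr (1.23 ± 0.39, adjusted p = 0.0386) and Rasgrp4 (1.95 ± 0.62, adjusted p = 0.0395) rose. Bmx was lower in the Pax5+/- than in the both-copies leukaemias (-1.30 ± 0.11, adjusted p = 6.01e-05), and Fyn higher (1.26 ± 0.22, adjusted p = 0.0105). Beside them 13 of 15 macrophage markers rose in the Pax5+/- and 8 of 15 in the both-copies leukaemias, 5 of 6 megakaryocyte markers in the Pax5+/- and 3 of 6 in the both-copies leukaemias, and 2 of 8 T cell markers in the Pax5+/- and 0 of 8 in the both-copies leukaemias (limma). The mean level of the megakaryocyte markers was 7.66 to 10.84 in the Pax5+/- and 8.98 to 10.59 in the both-copies leukaemias, against 6.76 to 7.13 in the B220+ cells, and that of the T cell markers 6.63 to 8.78 and 7.15 to 7.63 in these leukaemias, against 6.33 to 6.74. The part of these cells was not tested.

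Some paralogues fell in the precursors: 3 of 15 in the Pax5+/- precursors, Rasgrp2 (-0.72 ± 0.13, adjusted p = 0.0261), Zap70 (-0.42 ± 0.10, adjusted p = 0.0465) and Lcp2 (-1.26 ± 0.30, adjusted p = 0.0484), and 5 of 15 in the both-copies precursors, Fyn (-1.11 ± 0.13, adjusted p = 0.00237), Rasgrp2 (-0.72 ± 0.13, adjusted p = 0.00699), Clnk (-0.38 ± 0.09, adjusted p = 0.0134), Txk (-0.84 ± 0.19, adjusted p = 0.0138) and Zap70 (-0.33 ± 0.10, adjusted p = 0.0338), with the NK cell markers also lower. Of all genes, 2.94% fell in the Pax5+/- precursors and 15.5% in the both-copies precursors.

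The genes whose log2 level was most like that of each of the 9 over the 24 arrays are given as a description, since the arrays fall into leukaemias and sorted cells and share that split. Pearson's r over 24 arrays was 0.965 between Cd79a and Irf4 and 0.964 between Cd79a and Vpreb3. Cd79b was nearest to Pou2af1 (0.98) and Cyth1 (0.974). Blnk was nearest to Tifa (0.972) and Ifi209 (0.962). Syk was nearest to Neil1 (0.991) and Edem3 (0.989). Btk was nearest to 2810002D19Rik (0.966) and Med13 (0.966). Blk was nearest to Slamf6 (0.959) and Stambpl1 (0.953). Plcg2 was nearest to Eml4 (0.933) and Zfp287 (0.914). Rasgrp1 was nearest to Ralgps2 (0.949) and Limd1 (0.946). Bank1 was nearest to Ube2z (0.936) and Rhof (0.934). Within the 7 Pax5+/- leukaemias r was 0.96 for Cd79b and Pou2af1 and 0.915 for Blnk and Tifa, and 0.217 for Btk and Med13.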
